A study of Mus musculus with 6 samples.

Results

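Epcam, Cdh1, Ocln, Tjp1, F11r, Marveld2, Cldn7, Jaml and Cxadr, genes of epithelial junctions and of lymphocyte contact with epithelium, were followed in sorted lymphocytes of the mouse small intestine. They were taken by gene symbol from the deposited count table, and all 9 of 9 symbols were found among its 55487 genes. The libraries came from live cells of the epithelial area of wild-type (WT) C57BL/6J mice, all sorted as CD3ε+ and CD45+. B220- cells, called T cells in the labels, gave 3 libraries, and B220+ cells, called X cells, gave 3. B220 is a form of the leukocyte phosphatase CD45. Mouse age and number were not stated. Nor do the labels tie each library to its own mouse, so the p-values reflect spread among 6 libraries that may be technical. The deposited counts summed to between 11320363 and 39591312 per library.

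Junctions hold epithelial cells to each other. Tight junctions are built from claudins, occludin-family proteins and immunoglobulin-fold proteins tied to scaffold proteins of the zonula occludens, and adherens junctions are built from cadherins tied to catenins. Intraepithelial lymphocytes sit between epithelial cells and touch these proteins: the integrin αEβ7 on the lymphocyte binds E-cadherin (Cdh1), and JAML (Jaml), a receptor that costimulates γδ T cells of epithelia, binds CAR (Cxadr) on epithelial cells. Some intraepithelial lymphocytes also make junction proteins themselves.

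Of the 9 genes, 4 were expressed above the rest in both groups (Jaml, Cdh1, Epcam and Marveld2), and Ocln and F11r were close to 0. Marveld2 rose in B220+ cells and Tjp1 fell, both by edgeR's quasi-likelihood test with Benjamini-Hochberg adjustment. Epcam stood at 35.9 ± 14.7 and 75.4 ± 6.20 CPM (counts scaled to library size, B220- first here and below, as mean ± SD with n = 3) and Cxadr at 3.86 ± 0.989 and 6.34 ± 0.788 CPM, both without overlap of the groups, but neither passed that test. Cdh1 and Jaml overlapped between the groups. Over 14722 genes tested, 11.1% were called and 28.1% had groups that did not overlap. Among the 9 genes, 7 passed the filter on low counts, 2 were called and 4 did not overlap. DESeq2 called 3 (12.0% of all genes), Epcam among them. With the replicate number as a block edgeR called 3 too (17.5%), Cxadr among them. Leaving out B220- replicates 1, 2 and 3 in turn gave 3, 2 and 0 called members (9.23%, 12.0% and 6.74% of all genes). Leaving out B220+ replicates 1, 2 and 3 in turn gave 2, 0 and 1 (8.11%, 6.52% and 7.87%).

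The RefSeq table (GRCm38.p6, the mm10 build) held promoter windows for 7 of the 9 genes. The 250 bases before the start are shown for Marveld2 and Tjp1, the genes that passed the test, for Epcam, whose level differed most among the genes expressed well, and for Jaml, the most abundant. Each is written 5′ to 3′ on the strand of its gene. Capitals mark matches to the E-box CAGGTG, the GC box GGGCGG or the RUNX motif TGTGGT on either strand.
Marveld2, chr13:100616972-100617221, minus strand: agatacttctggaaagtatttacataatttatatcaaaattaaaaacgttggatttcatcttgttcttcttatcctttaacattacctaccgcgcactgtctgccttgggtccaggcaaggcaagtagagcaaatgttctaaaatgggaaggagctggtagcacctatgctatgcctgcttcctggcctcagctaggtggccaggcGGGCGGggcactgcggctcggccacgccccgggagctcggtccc
Epcam, chr17:87635729-87635978, plus strand: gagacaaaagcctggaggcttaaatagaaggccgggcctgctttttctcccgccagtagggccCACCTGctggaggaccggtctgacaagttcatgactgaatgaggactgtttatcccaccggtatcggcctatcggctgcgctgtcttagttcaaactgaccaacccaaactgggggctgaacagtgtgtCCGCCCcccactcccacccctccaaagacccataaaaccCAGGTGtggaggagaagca
Tjp1, chr7:65371245-65371494, minus strand: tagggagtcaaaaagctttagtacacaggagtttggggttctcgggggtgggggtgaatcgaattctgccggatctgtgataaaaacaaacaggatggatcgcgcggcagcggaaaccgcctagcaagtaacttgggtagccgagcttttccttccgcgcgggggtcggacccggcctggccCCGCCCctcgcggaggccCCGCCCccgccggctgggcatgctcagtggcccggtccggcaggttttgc
Jaml, chr9:45078933-45079182, plus strand: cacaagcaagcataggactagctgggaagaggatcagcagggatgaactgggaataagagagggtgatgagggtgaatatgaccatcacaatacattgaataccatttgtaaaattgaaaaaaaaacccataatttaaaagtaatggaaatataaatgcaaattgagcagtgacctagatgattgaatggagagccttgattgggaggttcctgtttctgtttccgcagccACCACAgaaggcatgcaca
The Jaml window held 40.8% G and C and 1 CpG, and 18.8% of all 32851 windows held at most 1 CpG. The windows shown for Marveld2, Epcam and Tjp1 held 10, 8 and 22 CpG. Another Marveld2 window, at 100616945 to 100617194, is not shown and held 14 CpG and 1 GC box. The E-box occurred 2 times in the Epcam window and in 17.2% of all windows. A GC box occurred 1 time in the windows of Epcam and Marveld2 and 2 times in that of Tjp1, against 32.7% of windows with at least 1. The RUNX motif occurred 1 time in the Jaml window and in 14.05% of all windows. The start used for Tjp1 lies inside the deposited gene model, which reaches further upstream. A match describes letters only.

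Levels were compared between genes on a scale of CPM per kilobase of exon. Jaml was highest, at 125 ± 17.4 in B220- and 129 ± 14.9 in B220+ cells, followed by Cdh1 at 57.9 ± 5.46 and 56.4 ± 3.51. Epcam followed at 16.4 ± 6.71 and 34.3 ± 2.83, and Marveld2 at 3.99 ± 0.945 and 6.63 ± 0.657. These 4 neighbours did not overlap in any library of either group. Cxadr (0.522 and 0.857 CPM per kilobase), Cldn7 (0.444 and 0.376), Tjp1 (0.192 and 0.0602), F11r (0.0924 and 0.0683) and Ocln (0.106 and 0.0390) were lower. Cxadr and Cldn7 overlapped in B220- libraries but not in B220+ libraries, as did Cldn7 and Tjp1, and Tjp1, F11r and Ocln overlapped each other in both groups.

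**Figure D1:**
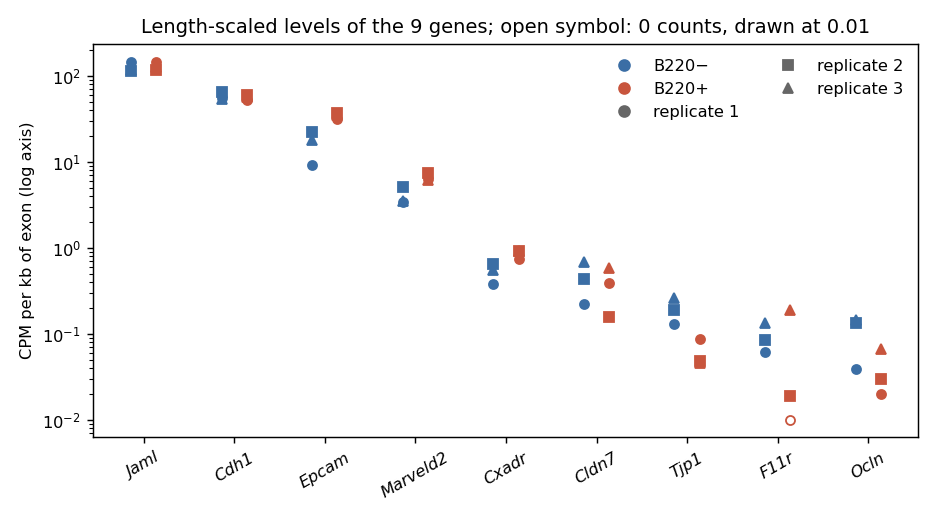
CPM per kilobase of exon (log axis) of each gene in the 3 B220- (blue) and 3 B220+ (red) libraries, with the marker shape giving the replicate and an open symbol a count of 0. Jaml, Cdh1, Epcam and Marveld2 lie above the other 5 genes in every library.

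All 6 libraries carried the T cell genes Cd3e (1214 ± 13.7 and 1361 ± 56.4 CPM) and Cd3g (1255 ± 50.9 and 1426 ± 116 CPM) and Ptprc, which encodes CD45 (2481 ± 90.3 and 2188 ± 27.96 CPM). Of 7 T cell genes 1 was called higher (Trdc) and 1 lower (Cd247), against 5.58% and 5.56% of all genes tested. Cd247 shares 3007 of its 5329 exonic bases with the opposite-strand gene Pou2f1, which had 5896 counts against 21915. Trdc shares 96 of its 3865 exonic bases with the opposite-strand gene Gm43434, which had 30624 counts against 101923. Of 11 B cell markers 5 were tested, and edgeR called 0 higher and 1 lower (Blk, a B cell kinase), while DESeq2 and the replicate block each called 2 higher and 1 lower. The higher pair were the immunoglobulin genes Ighm (155 ± 36.6 and 253 ± 34.4 CPM) and Ighd (4.07 ± 2.27 and 12.03 ± 3.55 CPM), both without overlap of the groups (edgeR adjusted p = 0.0950 and 0.0775). Jchain stood at 48.7 ± 44.1 and 12.02 ± 9.67 CPM and Cd79b at 27.4 ± 4.37 and 31.7 ± 1.80 CPM. Epithelial marker genes were low and varied between libraries. Of 30 such markers 19 could be tested and 0 were called by edgeR, with 1 at an unadjusted p under 0.05, 0 called by DESeq2 and 2 called lower with the replicate number as a block (Muc2 and Olfm4). Their CPM summed to 54.0 to 143 in B220- and 43.7 to 132 in B220+ libraries, and the highest sum in each group was in replicate 3. The most abundant were Lgals4 (20.2 ± 3.45 and 18.7 ± 2.32 CPM) and the Paneth cell genes Lyz1 and Defa24, each of which can share reads with near-identical family members. Dclk1, of tuft cells, was at 0 in all 6 libraries. With B220- and B220+ replicate 3 both left out, 0 of the 9 genes were called, in a fit of 2 libraries a group that called 508 genes in all (3.38%).

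Epcam (ENSMUSG00000045394, mm10 chromosome 17, 87635979 to 87651129, plus strand) encodes a homophilic adhesion protein of epithelial cells that stabilises claudin-7. In B220- replicates 1, 2 and 3 it had 20.0, 49.0 and 38.8 CPM, and in B220+ replicates 1, 2 and 3 it had 68.7, 81.0 and 76.3 CPM. Every B220+ library was above every B220- library, and B220- replicate 1 was the lowest of the 6. The fold change was 2.11 (log2 fold change 1.08, SE 0.35, edgeR adjusted p = 0.170). With all 6 libraries edgeR did not call it. Without B220- replicate 1 edgeR did, at an adjusted p of 2.16e-04 and a log2 fold change of 0.78. DESeq2 on all 6 libraries gave an adjusted p of 0.0359.

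Epcam was also set against the epithelial markers. Per 100 CPM of the 27 epithelial markers other than Lyz1, Defa24 and Olfm4, a subset chosen after their values were seen, Epcam stood at 42.5 to 101 CPM in B220- and 115 to 204 CPM in B220+ libraries, which did not overlap. Per 100 CPM of all 30 markers the ranges overlapped, at 27.2 to 83.0 and 57.6 to 168 CPM. Within each replicate number Epcam was higher in the B220+ library on that scale too (37.0 and 157 CPM, 83.0 and 168 CPM, 27.2 and 57.6 CPM), while the marker sum was lower in the B220+ library (54.0 and 43.7 CPM, 59.0 and 48.1 CPM, 143 and 132 CPM). The villin gene Vil1, a defining marker of enterocytes, stood at 2.61 ± 0.4004 and 2.52 ± 0.993 CPM. In a bulk library, fewer cells of a type and less RNA per cell cannot be told apart.

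Cldn7 (ENSMUSG00000018569, chromosome 11, 69964779 to 69967885) is the claudin that binds EpCAM. It had 8, 15 and 15 counts in B220- replicates 1 to 3 and 9, 12 and 16 in B220+ replicates 1 to 3. The highest CPM of each group was in replicate 3 (1.31 and 1.13 CPM), as for the epithelial markers, and the groups overlapped. The log2 fold change was -0.32 (SE 0.57, edgeR adjusted p = 0.818). Per kilobase of exon, Epcam was 26.3 to 51.2 times as high as Cldn7 in B220- and 59.8 to 238 times as high in B220+ libraries.

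**Figure D2:**
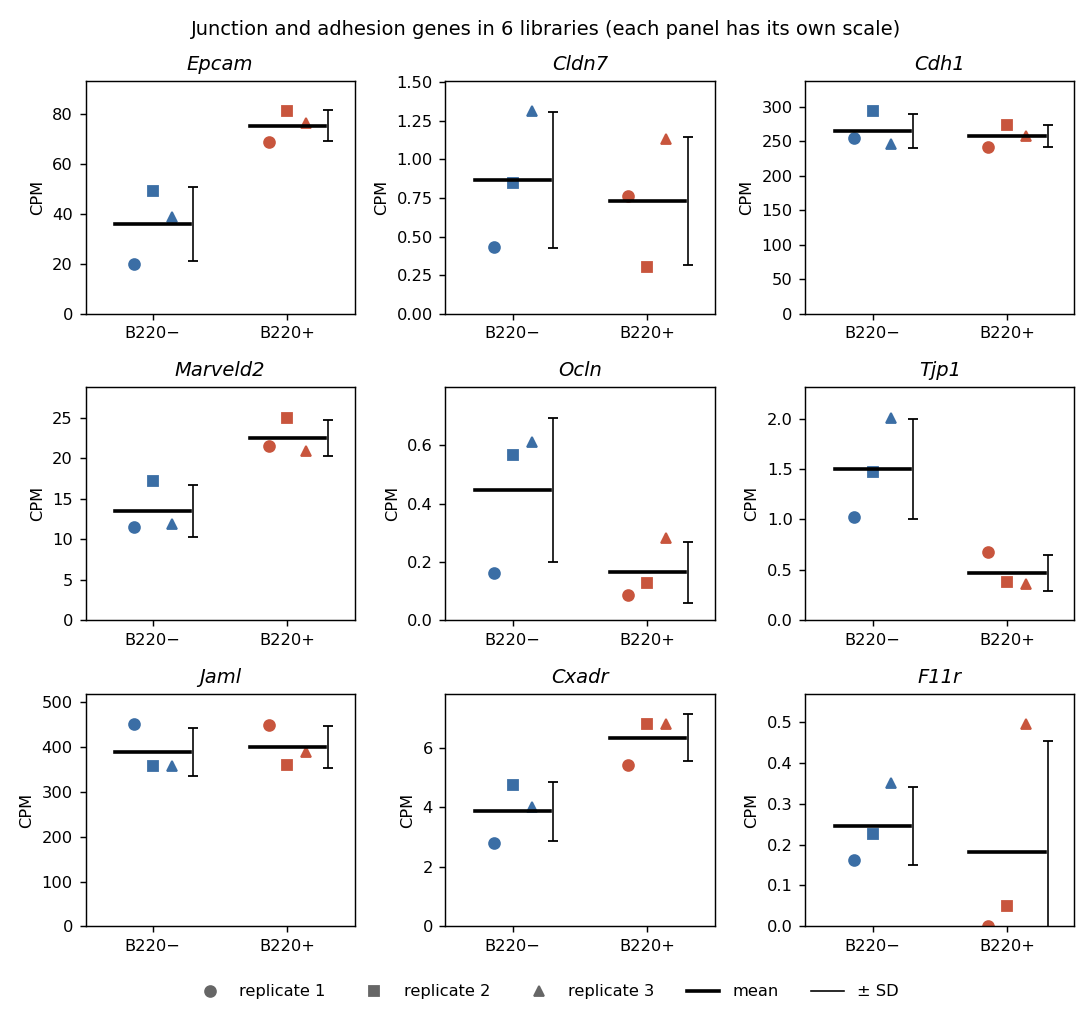
CPM of each of the 9 genes in the 3 libraries of each group, with the mean as a thick line and the SD as a bar (cut off at 0 for F11r), each panel on its own scale. The groups do not overlap for Epcam, Marveld2, Cxadr and Tjp1, and they overlap for the other 5.

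Cdh1 (ENSMUSG00000000303, chromosome 8, 106603351 to 106670246) encodes E-cadherin, the cadherin of epithelial adherens junctions. It had 255, 293 and 246 CPM in B220- replicates 1 to 3 and 242, 274 and 258 CPM in B220+ replicates 1 to 3. Replicate 2 was the highest of both groups, and the groups overlapped. The log2 fold change was -0.039 (SE 0.080, edgeR adjusted p = 0.847). Its level was 333 to 602 CPM per 100 CPM of the 27 epithelial markers in B220- and 390.1 to 689 in B220+ libraries.

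Lymphocyte receptors of E-cadherin were read beside it. Itgae, the αE chain, stood at 2567 ± 103 and 2633 ± 141 CPM (edgeR adjusted p = 0.854). Per kilobase of exon Itgae was 8.91 to 10.3 times as high as Cdh1 in B220- and 9.57 to 11.5 times as high in B220+ libraries. Its partner Itgb7 fell 1.38-fold (edgeR adjusted p = 0.00218), and Klrg1, an inhibitory receptor of E-cadherin, fell 2.58-fold from 4.40 ± 0.558 CPM (edgeR adjusted p = 0.00617).

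Marveld2 (ENSMUSG00000021636, chromosome 13, 100595957 to 100616971, minus strand) encodes tricellulin, the MARVEL-domain protein found where 3 cells meet. It had 11.5, 17.2 and 11.8 CPM in B220- replicates 1 to 3 and 21.5, 25.0 and 20.9 CPM in B220+ replicates 1 to 3. Each B220+ library was above each B220- library. It rose 1.67-fold (log2 fold change 0.74, SE 0.16, edgeR adjusted p = 0.00887), in a comparison in which 5.58% of genes were called higher. The adjusted p was 0.0523 without B220- replicate 3, 0.0591 without B220+ replicate 2 and 0.112 without replicate 3 of both groups.

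Per 100 CPM of the 27 epithelial markers Marveld2 stood at 16.0 to 35.2 CPM in B220- and 31.6 to 62.9 CPM in B220+ libraries, ranges that overlapped. Within each replicate number it was higher in the B220+ library on this scale. The part of epithelial RNA in the Marveld2, Epcam and Cxadr results was not tested.

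Occludin, the founding MARVEL-domain protein of tight junctions, was near the detection limit although its gene neighbours Marveld2. Ocln (ENSMUSG00000021638, chromosome 13, 100496507 to 100552718) lies on the same strand, 43.2 kilobases from Marveld2. It had 3, 10 and 7 counts in B220- replicates 1 to 3 and 1, 5 and 4 in B220+ replicates 1 to 3, too few to be tested. Per kilobase of exon Marveld2 was 24.1 to 88.6 times as high as Ocln in B220- and 92.1 to 316 times as high in B220+ libraries. Of the remaining MARVEL-domain genes in the list of tight junction partners, Marveld1 was 1.20-fold higher (36.5 ± 0.664 and 43.9 ± 0.589 CPM, edgeR adjusted p = 0.0323). Its adjusted p was above 0.05 whichever library was removed, 0.107 at most, on removing B220+ replicate 2. Whether Marveld1 acts in junctions was not tested. Marveld3 had 0 to 2 counts per library.

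Tjp1 (ENSMUSG00000030516, chromosome 7, 65296165 to 65527781, minus strand) encodes ZO-1, the scaffold that links tight junction proteins to actin. Its counts were low, 68 in B220- cells and 28 in B220+ cells. Its level was 1.02, 1.47 and 2.01 CPM in B220- replicates 1 to 3 and 0.679, 0.378 and 0.354 CPM in B220+ replicates 1 to 3. All B220+ libraries were below all B220- libraries. It was 3.28-fold lower (log2 fold change -1.71, SE 0.44, edgeR adjusted p = 0.0254, with 5.56% of genes called lower).

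The Tjp1 call was lost on removing any of 4 libraries: edgeR gave an adjusted p of 0.0558 without B220- replicate 2, 0.116 without B220- replicate 3, 0.154 without B220+ replicate 2 and 0.103 without B220+ replicate 3. Per 100 CPM of the 27 epithelial markers Tjp1 stood at 2.18 to 3.02 CPM in B220- and 0.535 to 1.74 CPM in B220+ libraries. Of 14 endothelial and stromal markers 3 were tested, 0 called higher and 1 lower, with a median log2 fold change of 0.22. Pdgfrb, the platelet-derived growth factor receptor β of stromal cells, fell from 1.64 ± 0.579 to 0.213 ± 0.100 CPM (edgeR adjusted p = 0.00288), while the collagen gene Col1a1 stood at 2.49 ± 0.464 and 3.41 ± 1.08 CPM (edgeR adjusted p = 0.401) and Pecam1, which lymphocytes also express, at 28.9 ± 0.584 and 33.4 ± 3.04 CPM (edgeR adjusted p = 0.177). The list summed to 32.1 to 35.1 CPM in B220- and 35.0 to 41.4 CPM in B220+ libraries, and Kdr and Lum were at 0 in every library. Of 19 myeloid and granulocyte markers 10 were tested, 0 called higher and 2 lower, with a median log2 fold change of -0.15. Lyz2, of macrophages, fell from 2.07 ± 0.573 to 0.303 ± 0.147 CPM (edgeR adjusted p = 0.0020), and the mast cell protease gene Mcpt1 fell from 5.60 ± 3.79 to 0.518 ± 0.237 CPM (edgeR adjusted p = 0.0104, 0.0594 without B220+ replicate 2). Mcpt1 lost the call on removing either of 2 libraries. The integrin genes Itgax (278 ± 42.5 and 431 ± 78.5 CPM, edgeR adjusted p = 0.0554) and Itgam (2.80 ± 0.465 and 4.08 ± 0.361 CPM, edgeR adjusted p = 0.170) had higher means in B220+ cells without overlap of the groups, and Itgax was called with the replicate block (1.99e-06). The count of Itgam is uncertain, since 3450 of its 5024 exonic bases are shared with the same-strand model Gm49368. Csf1r stood at 11.97 ± 1.34 and 11.5 ± 0.847 CPM and Cd68 at 7.0 ± 1.45 and 4.87 ± 0.501 CPM, neither called. Csf1r shares 873 exonic bases with the opposite-strand gene Hmgxb3, which had 8262 counts against 1320. The list summed to 274 to 343 CPM in B220- and 396 to 547 CPM in B220+ libraries, most of it Itgax, which intraepithelial lymphocytes also express, and S100a8 and S100a9 were at 0 in every library. The part of such cells in the Tjp1 result was not tested.

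Tjp3, which encodes the related scaffold ZO-3, was not called in either direction. It stood at 31.8 ± 4.26 and 39.7 ± 3.14 CPM, with overlap (edgeR adjusted p = 0.0730, 0.0136 with the replicate block).

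Jaml (ENSMUSG00000048534, chromosome 9, 45079183 to 45108534, plus strand) was the most abundant of the 9 genes in both groups. It had 452, 357 and 359 CPM in B220- replicates 1 to 3 and 450.3, 359.5 and 389.6 CPM in B220+ replicates 1 to 3. Replicate 1 was the highest of both groups, and the groups overlapped. The log2 fold change was 0.038 (SE 0.11, edgeR adjusted p = 0.891). Exons of Jaml and of the opposite-strand noncoding gene Gm10684 share 397 bases, and Gm10684 had 25.4% as many counts as Jaml. Reads of the pair may not be told apart, since the strand setting of the counting was not stated. Gm10684 did not pass the test either (100.4 ± 11.8 and 99.9 ± 9.22 CPM, edgeR adjusted p = 0.964).

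Cxadr (ENSMUSG00000022865, chromosome 16, 78301489 to 78359774, plus strand) encodes CAR, the ligand of JAML and a tight junction protein of epithelial cells. It had 2.80, 4.76 and 4.02 CPM in B220- replicates 1 to 3 and 5.43, 6.80 and 6.79 CPM in B220+ replicates 1 to 3. The B220+ libraries were above the B220- libraries without overlap, the nearest being B220- replicate 2 and B220+ replicate 1. The fold change was 1.66 (log2 fold change 0.73, SE 0.22, edgeR adjusted p = 0.0546). Blocking on the replicate number moved the edgeR adjusted p to 0.0120. It was also under 0.05 with no low-count filter (0.0164) and without B220- replicate 2 (0.0215). Cxadr shares 695 exonic bases with the opposite-strand gene Btg3, whose counts were 6837 against 612 for Cxadr. Reads of this pair may not be told apart either. The level of Cxadr may hold reads of Btg3 or lack reads from the shared bases. The ratio of Jaml to Cxadr may therefore be too low or too high. Btg3, an antiproliferative factor, stood at 57.4 ± 2.90 and 62.0 ± 4.40 CPM (edgeR adjusted p = 0.438).

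Set against its ligand, Jaml was 179 to 384 times as high as Cxadr in B220- and 126 to 197 times as high in B220+ libraries, per kilobase of exon. Per 100 CPM of the 27 epithelial markers Cxadr stood at 5.44 to 9.77 CPM in B220- and 10.3 to 17.1 CPM in B220+ libraries, without overlap. Per 100 CPM of all 30 markers the ranges overlapped, at 2.82 to 8.06 and 5.13 to 14.1 CPM, and within each replicate number the B220+ library was higher.

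F11r (ENSMUSG00000038235, chromosome 1, 171437535 to 171464603) encodes JAM-A, a junction protein of epithelium, endothelium and platelets and a ligand of the integrin LFA-1. It had 3, 4 and 4 counts in B220- replicates 1 to 3 and 0, 2 and 7 in B220+ replicates 1 to 3, and was not tested. The count of 0 in B220+ replicate 1 allows a level of up to 0.255 CPM, for counting error only. Itgal, the αL chain of LFA-1, fell 4.13-fold (292 ± 50.4 and 71.0 ± 5.96 CPM, edgeR adjusted p = 2.85e-05), while its partner Itgb2 stood at 456 ± 42.2 and 403 ± 20.5 CPM (edgeR adjusted p = 0.188, 0.0430 with the replicate block).

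**Figure D3:**
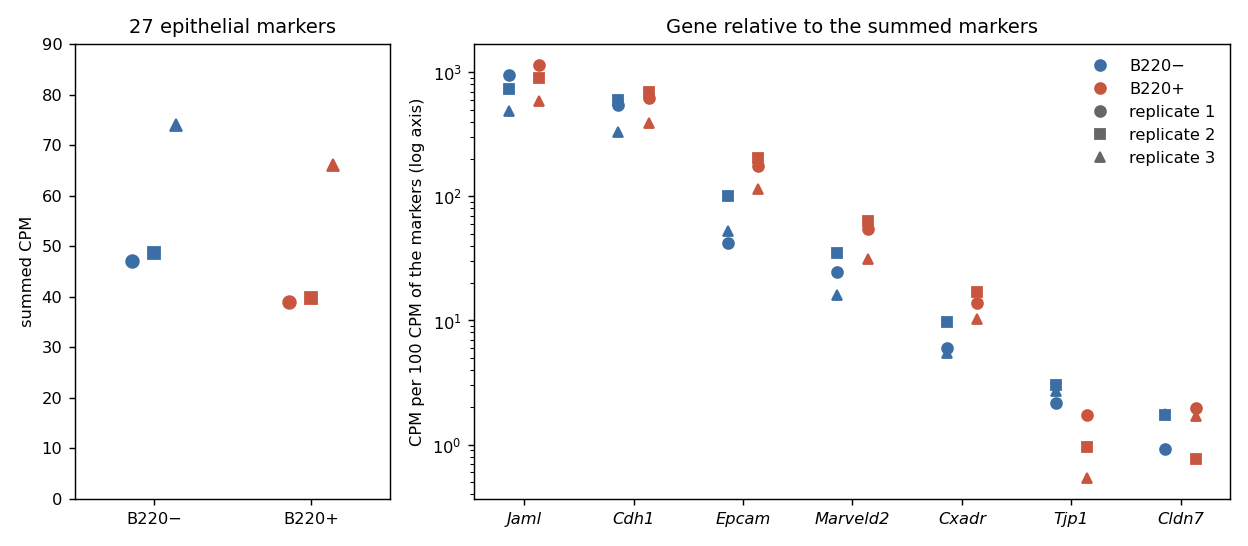
Left, summed CPM of 27 epithelial markers in each library, highest in replicate 3 of both groups. Right, CPM of 7 genes per 100 CPM of those markers (log axis): Epcam and Cxadr are higher in all B220+ (red) than in all B220- (blue) libraries on this scale of markers chosen after their values were seen, but both overlap per 100 CPM of all 30 markers, which the plot does not show.

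Other genes listed as tight junction partners, Marveld1 among them, were counted for context. Of 33 listed genes 16 were tested, 3 were called higher and 0 lower, against 5.58% and 5.56% of all genes tested. With the replicate block 6 were called higher and 0 lower, in a fit that called 17.5% of all genes in either direction. The median log2 fold change was 0.22, against -0.0074 over all genes tested. Their summed level was 169 to 205 CPM in B220- and 229.8 to 248 CPM in B220+ libraries. Igsf5, which encodes JAM4 of the same immunoglobulin family as F11r and Cxadr, rose from 5.49, 7.54 and 9.79 CPM in B220- replicates 1 to 3 to 17.0, 13.8 and 14.8 CPM in B220+ replicates 1 to 3. Its fold change was 2.01 (edgeR adjusted p = 0.00394), and it passed whichever library was removed. Its exons share 788 bases with the same-strand model Gm49948, which had 0 counts. Cldn23, a claudin, rose 2.70-fold from 1.04 ± 0.207 CPM (edgeR adjusted p = 0.00757, 0.0622 without B220+ replicate 2). Cldn5, Cldn8 and the scaffold gene Mpdz were at 0 in all libraries.

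The list of adherens junction and desmosome genes had 24 members. Of 16 tested, 6 were called higher and 2 lower (5.58% and 5.56% of all genes), with a median log2 fold change of 0.46. Between 3 and 8 were called when 1 library was left out, with 3 on removing any one B220+ library, where 6.52% to 8.11% of all genes were called. Afdn, afadin, rose from 24.5, 39.9 and 31.2 CPM to 54.5, 65.6 and 54.3 CPM (edgeR adjusted p = 0.0246, 0.0968 without B220- replicate 3), and Ctnna1, α-catenin, rose 1.46-fold (edgeR adjusted p = 0.0260, 0.122 without B220+ replicate 2). Afdn lost the call on removing any of 4 libraries and Ctnna1 on removing any of 5. Vcl, vinculin, another actin linker, stood at 2.82 ± 0.112 and 2.53 ± 0.288 CPM (edgeR adjusted p = 0.797). Vcl shares 2090 of its 8191 exonic bases with the opposite-strand gene Ap3m1, which had 4648 counts against 303. Ctnnb1, β-catenin, the most abundant of the list, stood at 171 ± 10.9 and 189.9 ± 6.66 CPM (edgeR adjusted p = 0.212), and it shares 759 exonic bases with the opposite-strand gene Ulk4. Ctnnd1, p120-catenin, had 0 to 5 counts per library, but 4482 of its 7319 exonic bases are shared with the same-strand model Gm28635, so its count is uncertain.

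Desmosome genes were called in both directions, lower for Pkp3 only. Pkp2, plakophilin-2, had 3.02, 9.52 and 6.64 CPM in B220- replicates 1 to 3 and 20.3, 23.9 and 22.1 CPM in B220+ replicates 1 to 3. It was 3.49-fold higher, and B220- replicate 1 was the lowest, as for Epcam (edgeR adjusted p = 0.0392, 0.138 without B220- replicate 3). The plaque proteins Pkp4 (1.55-fold), Dsp (1.36-fold) and Ppl (2.96-fold) were higher too, with edgeR adjusted p of 0.0404, 0.0136 and 0.0337. Without B220+ replicate 2 these became 0.145, 0.0877 and 0.165. Pkp2, Pkp4 and Ppl each lost the call on removing any of 4 libraries, and Dsp on removing 1. Pkp3, plakophilin-3, fell 1.25-fold from 112 ± 4.90 CPM (edgeR adjusted p = 0.0108, 0.0588 without B220+ replicate 3). Nectin1, an adherens junction gene of the same list, fell from 27, 21 and 15 counts in B220- to 0, 7 and 4 counts in B220+ libraries (edgeR adjusted p = 0.00431).

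Among 16 lymphocyte adhesion receptors, all tested, 3 were called higher and 8 lower (5.58% and 5.56% of all genes), with a median log2 fold change of -0.32. Among the lower were Cd226 (2.75-fold, edgeR adjusted p = 8.76e-06), which binds nectin-2 and the poliovirus receptor, Itga4 (1.87-fold, edgeR adjusted p = 1.05e-05), the α4 chain that pairs with Itgb7, and Cd2 (3.32-fold, edgeR adjusted p = 4.71e-04), the receptor of CD48. Tigit, Cd96 and Crtam, which bind nectins or nectin-like proteins, were 1.66-fold, 1.21-fold and 1.20-fold higher. Cd96 lost the call on removing any of 4 libraries and Crtam on removing any of 3. Their highest edgeR adjusted p was 0.137 and 0.139, both without B220- replicate 3. Selplg, which binds selectins, stood at 642 ± 4.80 and 673 ± 46.0 CPM (edgeR adjusted p = 0.650).

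**Figure D4:**
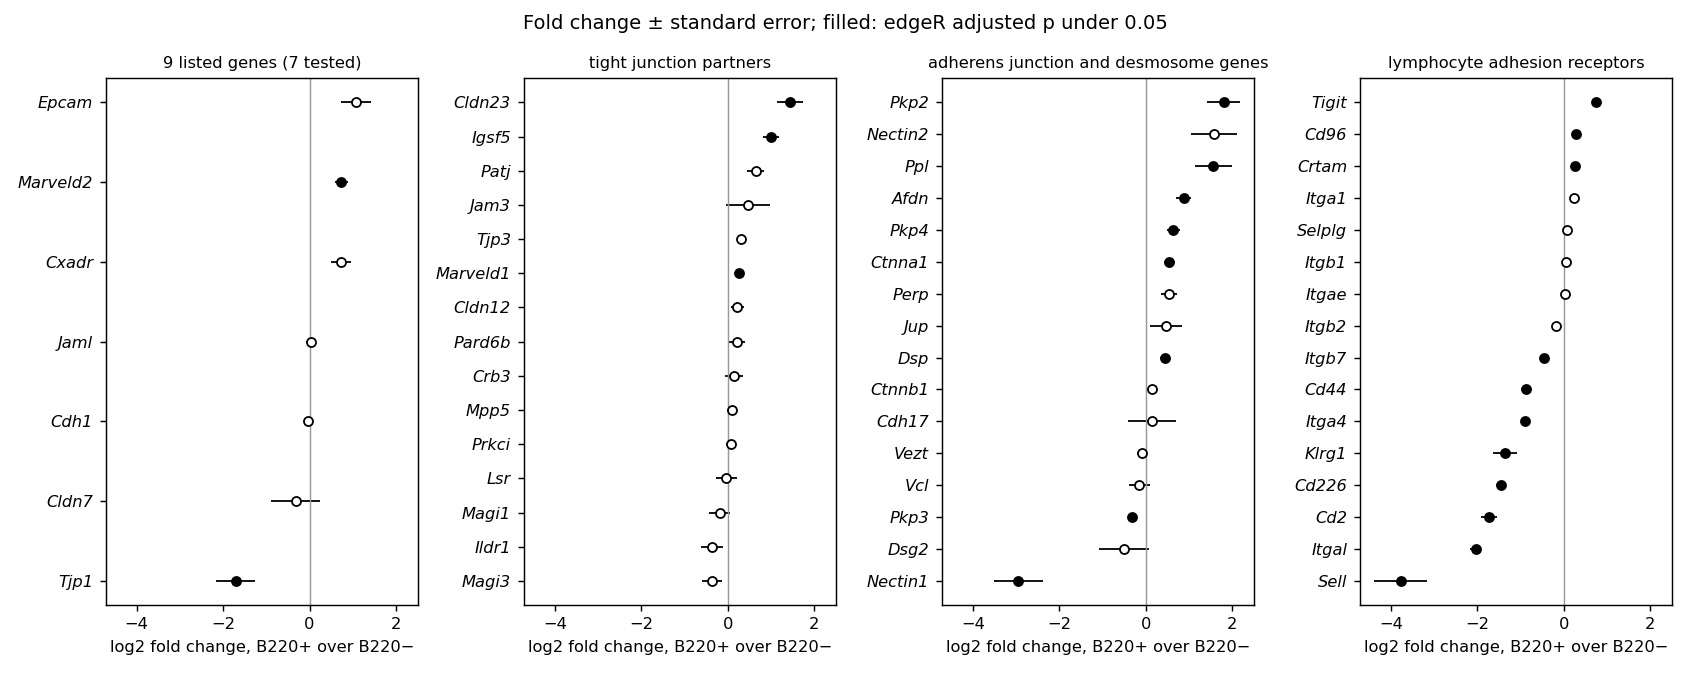
Log2 fold change of B220+ over B220- cells with its standard error for the tested genes reported here of 4 lists, filled where the edgeR adjusted p was under 0.05. In the adherens junction and desmosome list 11 of 16 estimates are above 0, and in the list of lymphocyte adhesion receptors 7 of 16.

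The genes whose pattern over the 6 libraries was nearest to a member were found by the root mean square difference of log2 CPM, centred per gene, among all genes tested. Nearest to Epcam were Rnf165 (0.039), Creb3l1 (0.069) and Gm19142 (0.076). Nearest to Marveld2 were Clip2 (0.050), Gm10640 (0.063) and Zfp948 (0.065), and nearest to Cxadr were Tmem198 (0.034), Ighm (0.034) and 2310015A10Rik (0.039). Jaml was nearest to Csgalnact2 (0.032), Coro1c (0.032) and Metap2 (0.037), and Cdh1 to Ttc21b (0.012), Slx1b (0.016) and 2700049A03Rik (0.024). For the low genes Tjp1 and Cldn7 the nearest were farther off, with Fam171b (0.23), AC099860.1 (0.25) and Gm26577 (0.25) for Tjp1 and H1f3 (0.15), 6430548M08Rik (0.20) and Gm10076 (0.24) for Cldn7.

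**Figure D5:**
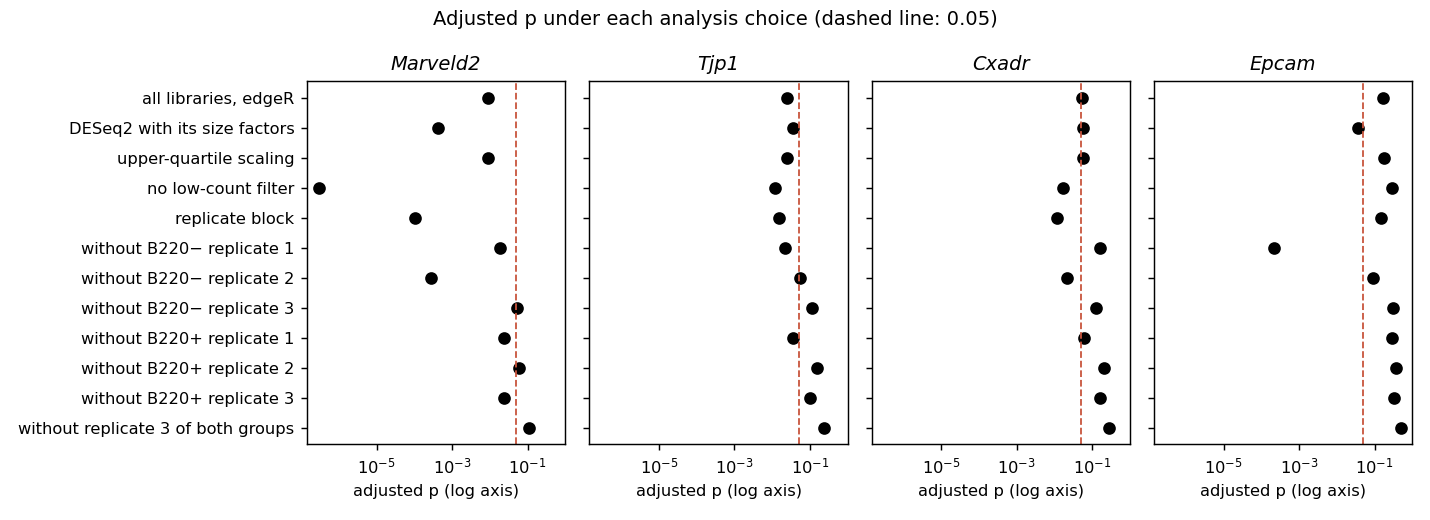
Adjusted p (log axis) of Marveld2, Tjp1, Cxadr and Epcam under each analysis choice, with the threshold of 0.05 dashed. Marveld2 stays under it in all rows but 3, and Epcam is under it in 2, DESeq2 and the fit without B220- replicate 1.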

How the data were processed

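The authors deposited raw whole-number counts of reads for each gene. Per the labels' protocols, the kit used (NEBNext Ultra II Directional) marks strand. Per the submitters' processing notes, FastQC 0.11.7, Trimmomatic 0.38, HISAT2 2.1.0, SAMtools 1.9, featureCounts 1.6.3 and the mm10 build were used. For strand setting and annotation release: not given in the sources used here. Coordinates are as deposited, 1-based, and 98.7% of gene models had those of GENCODE M21, from which exonic lengths were taken.

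Counts were tested with edgeR 4.0.16 in R 4.3.3: trimmed-mean scaling, filterByExpr (minimum count 10, total 15), a robust quasi-likelihood fit on the group, and Benjamini-Hochberg adjustment over 14722 genes, called under 0.05. The SE is the log2 fold change over the square root of F. Alternatives were DESeq2 1.42.0, upper-quartile scaling, no filter, a replicate block and leaving out each library. The fit was also run on counts simulated without a replicate effect, which cannot show how it does where libraries deviate together.

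Libraries with the same replicate number deviated together from their group means (correlation across genes 0.295, 0.246 and 0.272). For different numbers it was -0.20 to -0.067. With each group centred on its own mean, values above 0 for the same number push these below 0. The numbers may thus pair the libraries, a relation seen in the data that no label states. The main fit left the pairing out. Among the fits only the replicate block used it, and it called Cxadr (edgeR adjusted p = 0.0120, against 0.0546 in the main fit). Cxadr was called without the pairing too, with no filter (edgeR adjusted p = 0.0164) and without B220- replicate 2 (0.0215). No 2 libraries within a group were duplicates (chi-square over degrees of freedom 7.26 to 16.3).

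Genes and lists were chosen with earlier results of these data known. Named were all 9 genes, in each list the called genes (up to 4 a direction by adjusted p) and the 3 most abundant, and the 3 nearest genes of each tested member; other list genes were named after their values were seen, and 1 listed gene is not reported here.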

Additional observations from a re-analysis of the deposited data

How the results depend on the processing

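Members tested kept their direction under DESeq2, upper-quartile scaling, no filter and the replicate block. Left out in turn, single libraries gave log2 fold changes of 0.78 to 1.39 for Epcam, 0.63 to 0.96 for Marveld2, 0.53 to 0.93 for Cxadr and -1.98 to -1.47 for Tjp1. They turned the direction of genes that passed no test: Cdh1 ranged from -0.089 to 0.041, Jaml from -0.055 to 0.16 and Cldn7 from -0.82 to 0.19. Without replicate 3 of both groups, a setting chosen after seeing the data, Jaml was at -8.8e-04.

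Members called numbered 0 to 3 with 1 library left out, and genes called in all 970 to 1789. The main fit called 1639 genes in all, DESeq2 1761, no filter 2211 and the replicate block 2569, and 508 were called without both replicates 3. The fit with no filter covered every gene with a count, and it called 3 members, Cxadr among them. The replicate block gave 6 tight junction genes, 2 epithelial and 3 B cell markers (2 higher, 1 lower), no filter gave 6, 1 and 3, and DESeq2 gave 3 B cell markers (2 higher, 1 lower). The block changed the calls of Cxadr alone among the 9 genes. With 1 library left out the counts were 1 to 5 for tight junctions, 3 to 8 for adherens junctions and desmosomes, 8 to 11 for lymphocyte receptors, 0 to 1 for epithelial, 1 for endothelial and stromal, 1 to 3 for myeloid, 0 to 3 for B cell and 1 to 2 for T cell genes. Without both replicates 3 they were 1, 2, 7, 0, 0, 3, 1 and 1. Fewer libraries entered these fits. No other cause was tested. Tjp1, Cldn7, Ocln and F11r rest on under 100 counts each, which limits their precision.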
